A study of Mus musculus with 4 samples.

Results

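Macrophages can fuse into multinucleate giant cells, and the same precursors can become osteoclasts, the cells that resorb bone. Described here are 8 genes of these programmes in mouse bone marrow-derived macrophages: Dcstamp, Ocstamp, Atp6v0d2, Acp5, Tnfrsf11a, Nfatc1, Cdh1 and Itgb3. They were taken by symbol from a table of 14936 genes, and all 8 were found. The macrophages had been grown from bone marrow in medium with M-CSF at 20 ng/ml and then given interleukin-4 (IL-4) at 20 ng/ml, so every library came from IL-4-treated cells and none from untreated ones. The series set wild-type cells (WT) beside cells labelled Phlpp1-deficient (KO), after 12 h and 24 h of IL-4, with 1 library for each combination and 4 in all. The genotype of the 12 h KO library is spelled Phkpp1-deficient in its label, and its title gives KO. The labels do not say how Phlpp1 was made deficient, nor the strain, sex or age of the mice, nor whether animals or cultures were shared between libraries.

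In osteoclast precursors the cytokine RANKL binds its receptor RANK, encoded by Tnfrsf11a, and together with signals from ITAM-bearing adaptors and calcium this induces the transcription factor NFATc1. NFATc1 then drives genes of fusion, such as Dcstamp, and of bone resorption, such as Acp5. IL-4 acts through STAT6 instead: it can induce macrophages to fuse into giant cells, in which E-cadherin (Cdh1) and DC-STAMP take part, and it is known to restrain RANKL-driven osteoclast formation in mouse cells. Phlpp1 encodes a protein phosphatase of the kinase AKT.

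Promoter sequences from RefSeq (GRCm38.p6, the build behind mm10) were matched for 2 of the 8 genes, Tnfrsf11a and Acp5. Only these are shown, because no entry was found for the other genes. Tnfrsf11a was called between the genotypes and Acp5 between the times. Each is the 250 bases before an annotated start, written 5′ to 3′ on the gene's strand, and for Acp5, which has 3 entries, the entry shown is the 1 in which the STAT6 motif was found. Capitals mark matches to TTC, any 4 bases, GAA (the STAT6 motif) or to GGAAA and its complement TTTCC (the NFAT core). AP-1 (TGANTCA) was searched too, and both strands were read in the whole windows of 250 bases before to 50 after the start.
Tnfrsf11a, chr1:105780473-105780722, plus strand: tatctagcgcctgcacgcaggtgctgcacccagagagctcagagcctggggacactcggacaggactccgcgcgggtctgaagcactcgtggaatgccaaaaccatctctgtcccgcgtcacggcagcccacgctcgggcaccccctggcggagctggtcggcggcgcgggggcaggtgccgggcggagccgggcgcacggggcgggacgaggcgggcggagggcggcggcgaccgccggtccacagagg
Acp5, chr9:22130599-22130848, minus strand: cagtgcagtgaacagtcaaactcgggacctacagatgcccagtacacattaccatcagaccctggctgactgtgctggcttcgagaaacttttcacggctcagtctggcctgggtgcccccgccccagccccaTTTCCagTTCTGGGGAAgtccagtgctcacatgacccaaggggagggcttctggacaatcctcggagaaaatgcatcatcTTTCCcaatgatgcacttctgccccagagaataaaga
The Tnfrsf11a window held none of the 3 motifs. The Acp5 window shown held the STAT6 motif 1 time and the NFAT core 2 times, the latter not overlapping the former, and each of the other Acp5 windows held the NFAT core 1 time. Of 32851 promoter windows, 6.95% held the STAT6 motif, 61.3% the NFAT core and 7.81% the AP-1 motif. These matches describe the letters of the windows alone.

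The libraries held 36707999 to 41770309 counts. Phlpp1 went against the labels: it stood at 11.9 and 15.6 CPM (counts relative to library totals scaled for composition) under the WT label and at 42.9 and 62.6 CPM under the KO label, at 12 h and 24 h (log2 1.93, SE 0.10, edgeR adjusted p = 3.28e-14). Counts per gene do not show whether an exon is missing. "Under the KO label" below means in the libraries that carry it, and directions are therefore those of the labels as given. By edgeR, 4.18% of 10993 genes tested were called higher and 5.34% lower under the KO label. Of 10 macrophage markers 7 were called lower under the KO label and 0 higher, and their summed level was 22360 to 23390 CPM under the WT label and 18140 to 18930 CPM under the KO label. Of this Lyz2 alone made up 14480 and 13270 CPM under the WT label and 11010 and 10520 CPM under the KO label. Csf1r, Cd68 and Itgam were not called (log2 -0.12, -0.07 and -0.12). Stromal and fibroblast markers were called higher for 7 of 9 tested and lower for 0, with a summed level of 101 and 119 CPM against 159 and 194 CPM. Neutrophil markers were called lower for 5 of 7, with a summed level of 950.0 and 1044 CPM under the WT label and 675 and 790.3 CPM under the KO label. Lymphocyte and mast cell or basophil markers summed to at most 15.3 CPM in a library. Of 2 lymphocyte markers tested, 1 was called lower (Jchain, log2 -3.01), and the list summed to 15.3 and 11.9 CPM against 4.87 and 3.86 CPM. Of 4 mast cell or basophil markers tested, 2 were called lower, Cpa3 (log2 -2.37) and Prss34 (log2 -2.11). Both passed the filter at 1 CPM only through the libraries labelled WT. In fits that left out time and, in turn, WT at 12 h, WT at 24 h, KO at 12 h and KO at 24 h, 3, 1, 4 and 5 macrophage markers were called lower, 1, 3, 6 and 5 stromal markers higher and 1, 2, 5 and 2 neutrophil markers lower. These counts with time left out and all 4 libraries kept were 4, 3 and 2. A fit without a library and without time leaves 1 library in a group, so its folds also hold a difference between times. This applies to all such fits below. Of the defining osteoclast markers, Calcr, the calcitonin receptor gene, was not in the table, and Oscar, an osteoclast receptor gene, had between 0 and 5 counts in a library. Ctsk, the collagen-degrading cathepsin of osteoclasts, stood between 26.2 and 34.5 CPM, and Mmp9, a gelatinase, between 9.89 and 11.4 CPM. Slc9b2, not tested, had 57 and 30 counts under the WT label and 22 and 35 under the KO label. Car2 had 37 and 47 counts under the WT label and 71 and 62 under the KO label. It was not called (log2 0.65, SE 0.39, edgeR adjusted p = 0.372). Of 7 osteoclast markers tested, 3 were called higher and 0 lower, and the 3 are Atp6v0d2, Dcstamp and Ocstamp, described below. "Osteoclast genes" below is a name for the genes and not for the cells. Whether osteoclasts were among the cells was not tested. In such bulk RNA a change in the number of cells of a type cannot be told apart from a change in RNA per cell.

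Levels were compared between genes with the deposited FPKM values, which are scaled by gene length. The order was the same in all 4 libraries: Atp6v0d2, Acp5, Itgb3, Nfatc1, Tnfrsf11a, Dcstamp, Ocstamp and Cdh1. Atp6v0d2, a subunit of the proton pump that acidifies lysosomes and the resorption space, stood far above the rest, at 309.9 to 417 FPKM. Acp5, tartrate-resistant acid phosphatase, followed at 27.4 to 38.3 FPKM. The fusion genes were low, with Dcstamp at 2.10 to 6.42 FPKM and Ocstamp at 1.35 to 4.96 FPKM. Cdh1 was the lowest at 0.0864 to 0.381 FPKM. The neighbours Nfatc1 and Tnfrsf11a were nearly level in the KO library at 12 h (8.33 and 8.26 FPKM) and apart in the WT library at 12 h (8.80 and 5.78 FPKM). These levels rest on the authors' gene lengths, which differ from the merged exons of GENCODE M21 most for Ocstamp (1956 against 3657 bases) and Atp6v0d2 (4069 against 2716 bases).

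**Figure D1:**
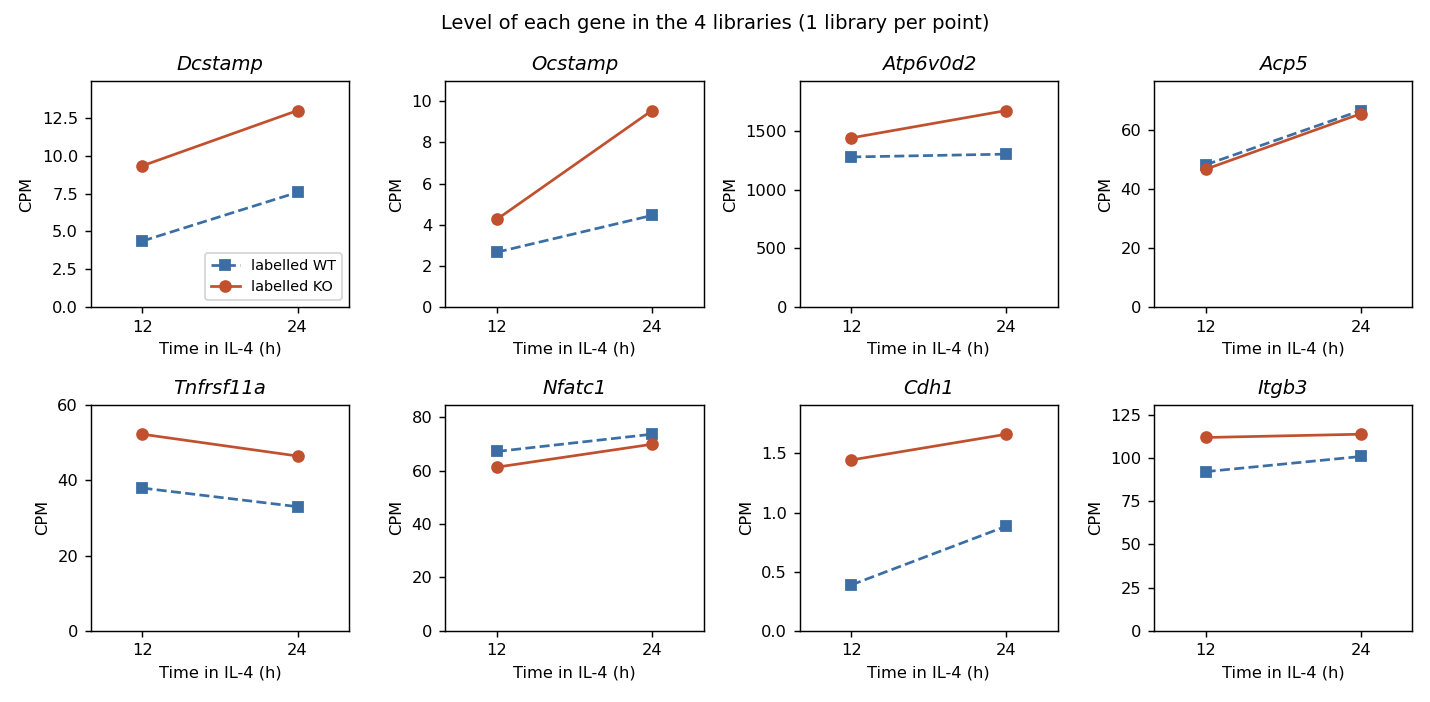
Level of each of the 8 genes in CPM (vertical axes, each from 0) by hours in IL-4 (horizontal axes); a point is 1 library, squares labelled WT and circles labelled KO, and lines only join libraries of a label. Dcstamp, Atp6v0d2, Tnfrsf11a, Cdh1 and Itgb3 lie higher in both libraries labelled KO than in both labelled WT, while for Acp5 the labels nearly coincide.

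The comparison of genotypes asks which genes differ in macrophages labelled Phlpp1-deficient under IL-4. The pair of fusion genes Dcstamp and Ocstamp, the receptor gene Tnfrsf11a and the pump subunit gene Atp6v0d2 were higher under the KO label, by 1.90-fold, 1.87-fold, 1.39-fold and 1.20-fold across both times. Nfatc1 and Acp5, the master factor and the classical enzyme marker of osteoclasts, were not called. Cdh1 and Itgb3 had folds above 1 that missed the threshold. In all, 4 of the 8 genes were called higher and 0 lower by edgeR, where 4.18% of 10993 genes tested were called higher, 5.34% lower and 9.52% in either direction. The median log2 fold was 0.37 over the 8 genes and 0.00 over all genes tested. The 8 genes were chosen with earlier results of these data known, so these contrasts with all genes are no test of enrichment. For 5 of the 8 genes both libraries labelled KO lay above both labelled WT, which was so for 21.6% of all genes tested, while 0 lay below (23.1% of genes) and 3 overlapped. Cdh1 is among the 5, and it passed the filter only through the libraries labelled KO, so its place there was fixed in advance. A gene was called with a Benjamini-Hochberg adjusted p under 0.05 over all genes tested in a model of genotype and time. Its single residual degree of freedom holds the genotype-by-time difference. The dispersion was shared across genes (27.8 prior degrees of freedom), and no combination had a replicate. The p-values therefore do not measure spread between replicates.

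**Figure D2:**
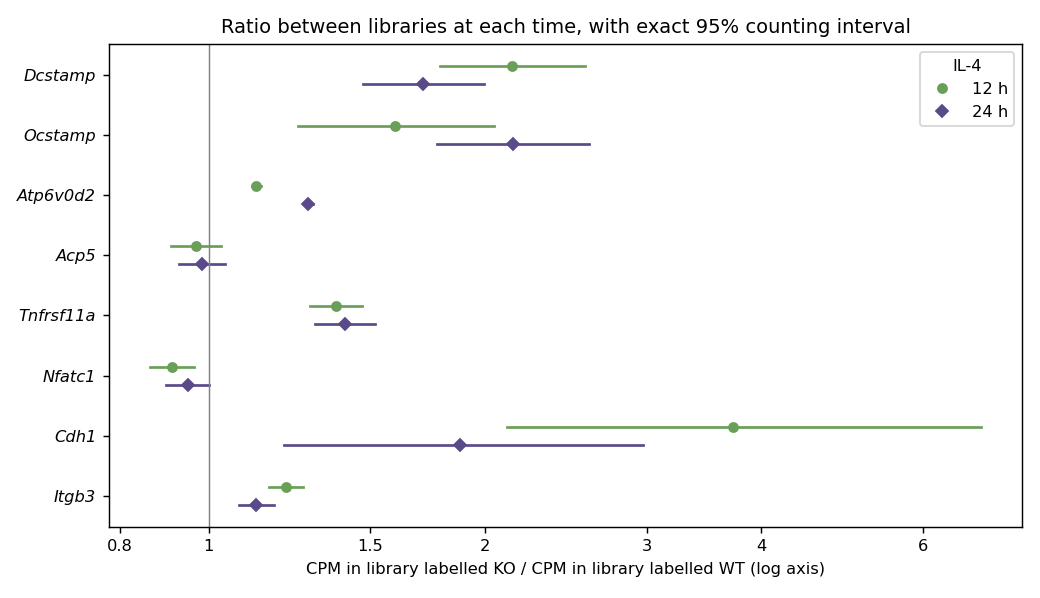
Ratio of CPM in the library labelled KO to that labelled WT (horizontal log axis) at 12 h (circles) and 24 h (diamonds) for the 8 genes, with exact 95% counting intervals as lines. Dcstamp, Ocstamp, Atp6v0d2, Tnfrsf11a, Cdh1 and Itgb3 lie right of 1 at both times and Acp5 spans 1 at both.

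Tnfrsf11a (chromosome 1, 105780718 to 105847981, plus strand, GRCm38) encodes RANK, the receptor through which RANKL starts osteoclast formation. It had 38.0 and 33.0 CPM under the WT label and 52.3 and 46.5 CPM under the KO label, at 12 h and 24 h. The groups did not overlap, and the ratio was nearly the same at both times: 1.38 at 12 h (exact 95% counting interval 1.29 to 1.47) and 1.41 at 24 h (1.31 to 1.52). The model gave a log2 fold of 0.48 (SE 0.09, edgeR adjusted p = 0.000437). The gene lies 323.8 kb from Phlpp1 on the same chromosome, and the part of that position in the difference was not tested. With time left out of the model and a library left out too, it was called without KO at 24 h and not called without WT at 12 h, WT at 24 h or KO at 12 h (log2 0.58, 0.38 and 0.39, adjusted p = 0.0616, 0.331 and 0.0568). Of its ligand and decoy receptor, which stromal cells make, Tnfsf11 (RANKL) was not in the table and Tnfrsf11b (osteoprotegerin) had 14 to 44 counts in a library.

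Nfatc1 (chromosome 18, 80606205 to 80713071, minus strand) encodes the transcription factor that RANK signalling induces and that is required for osteoclasts to form. It stood at 67.3 and 73.7 CPM under the WT label and at 61.4 and 70.0 CPM under the KO label. The groups overlapped, and no difference was called (log2 -0.10, SE 0.08, edgeR adjusted p = 0.54). The ratio was 0.912 at 12 h (counting interval 0.864 to 0.964) and 0.949 at 24 h (0.899 to 1.002).

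Dcstamp (chromosome 15, 39745930 to 39760938, plus strand) encodes a multi-pass membrane protein needed for the fusion of osteoclasts and of giant cells. Its level was 4.36 and 7.58 CPM under the WT label and 9.33 and 13.0 CPM under the KO label, at 12 h and 24 h, from 180 to 484 counts. The lower of the libraries labelled KO lay above the higher of those labelled WT. The ratio was 2.14 at 12 h (counting interval 1.79 to 2.57) and 1.71 at 24 h (1.47 to 1.99), and the model gave a log2 fold of 0.93 (SE 0.18, edgeR adjusted p = 0.000436). With time left out of the model it was not called without WT at 12 h (log2 0.56, adjusted p = 0.445) or without KO at 24 h (log2 0.65, adjusted p = 0.223), and without WT at 24 h or KO at 12 h it was called.

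Ocstamp (chromosome 2, 165393760 to 165400405, minus strand), whose protein works beside DC-STAMP in fusion, had 2.67 and 4.45 CPM under the WT label and 4.26 and 9.55 CPM under the KO label. The library labelled KO at 24 h was the highest, and the groups overlapped, since WT at 24 h lay above KO at 12 h. The ratio was 1.60 at 12 h (counting interval 1.25 to 2.05) and 2.14 at 24 h (1.77 to 2.60). The fitted log2 fold of Ocstamp was 0.90 (SE 0.22, edgeR adjusted p = 0.00634), and DESeq2 did not call it (log2 0.90, adjusted p = 0.117). With time left out it was called without KO at 12 h, and not without WT at 12 h, WT at 24 h or KO at 24 h (log2 0.63, 1.37 and 0.27, adjusted p = 0.662, 0.178 and 0.819). Of the 50-base stretches of its transcripts, 2.8% also occur in transcripts of other genes (496 genes in all), against 0% for Dcstamp.

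The adhesion genes had folds above 1 without a call. Cdh1 (chromosome 8, 106603351 to 106670246, plus strand), which encodes the cell-cell adhesion protein E-cadherin, had 16 and 32 counts under the WT label and 59 and 62 under the KO label. In CPM these were 0.388 and 0.885 under the WT label and 1.445 and 1.663 under the KO label. Cdh1 thus passed the filter at 1 CPM only through the libraries labelled KO. A gene that passes in this way cannot overlap between the groups, so its lack of overlap is no support for a difference. The ratio was 3.73 at 12 h (counting interval 2.12 to 6.94) and 1.88 at 24 h (1.21 to 2.98), and the model gave log2 1.35 (SE 0.44, edgeR adjusted p = 0.0512). The adjusted p was 0.0497 with median-of-ratios scaling in edgeR, 0.075 with TMM after the filter, 0.0962 with no filter and 0.445 by DESeq2. In fits without time, the log2 fold was 0.81 without WT at 12 h and 1.99 without WT at 24 h, and without either library labelled KO the gene fell under the filter. Of 8 epithelial markers, 7 were not in the table and Epcam had 4 counts in WT at 12 h and 0 in the others. Of 7 dendritic cell markers in the table, 3 were tested: Itgax and Ccl22 were called higher and Ccr7 was not called (log2 -0.62, edgeR adjusted p = 0.21). The list's summed level was 432 and 565 CPM under the WT label and 538 and 797 CPM under the KO label, of which Itgax alone made up 419.7, 548, 525 and 769.9 CPM in that order. Both were called without KO at 12 h, and 0 in the other 3 fits that left out time and a library. Of the markers not tested, Cd207, the Langerhans cell marker, had at most 1 count in a library and Flt3 had 3 to 10. Zbtb46 had 18 and 7 counts under the WT label and 19 and 64 under the KO label, at 12 h and 24 h. Clec9a had 22 and 22 counts under the WT label and 18 and 40 under the KO label. The part of such cells in the Cdh1 difference was not tested.

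Itgb3 (chromosome 11, 104608000 to 104670476, plus strand) encodes the integrin beta chain that pairs with alpha v on osteoclasts and with Itga2b on platelets. It stood at 92.2 and 101 CPM under the WT label and at 112 and 114 CPM under the KO label. These groups did not overlap, with ratios of 1.21 (counting interval 1.16 to 1.27) and 1.13 (1.08 to 1.18), but the fold missed the threshold (log2 0.23, SE 0.08, edgeR adjusted p = 0.0612). Its alpha partner gene Itgav and Itgb5, another beta partner of alpha v, were called lower. Itgav had 208 and 231 CPM under the WT label and 143 and 166 CPM under the KO label (log2 -0.51, SE 0.07, edgeR adjusted p = 3.84e-06), and Itgb5 was lower by log2 -0.34. By FPKM Itgb3 stood below Itgav under the WT label (15.3 and 16.5 against 20.2 and 22.1) and above it under the KO label (19.2 and 19.4 against 14.4 and 16.6). Megakaryocyte and platelet markers were called lower for 3 of 8 and higher for 0, with a summed level of 107 and 123 CPM under the WT label and 84.2 and 73.4 CPM under the KO label; without WT at 12 h, WT at 24 h, KO at 12 h and KO at 24 h in turn, with time left out, 1, 0, 2 and 1 were called lower. With a library and time left out, Itgav was not called without WT at 24 h (log2 values of the 4 such fits -0.62 to -0.40), and Itgb5 was called only without KO at 24 h (-0.40 to -0.28).

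Atp6v0d2 (chromosome 4, 19876841 to 19922605, minus strand) encodes the d2 form of the V0 d subunit, which osteoclasts and macrophages make beside the ubiquitous d1 form. It had 1277 and 1301 CPM under the WT label and 1439 and 1672 CPM under the KO label. Both libraries labelled KO lay above both labelled WT. The ratio was 1.13 at 12 h (counting interval 1.11 to 1.14) and 1.28 at 24 h (1.269 to 1.3), and the model gave 0.27 (SE 0.06, edgeR adjusted p = 0.00227). The d1 gene Atp6v0d1 had 284 and 273 CPM under the WT label and 265 and 251 CPM under the KO label and was not called (log2 -0.11, SE 0.07, edgeR adjusted p = 0.356). By FPKM the d2 form made up 64.6% and 65.9% of d1 plus d2 under the WT label and 68.8% and 73.0% under the KO label. No 50-base stretch of Atp6v0d2 transcripts occurs in another gene's. With a library and time left out, Atp6v0d2 was called without KO at 12 h and not without WT at 12 h, WT at 24 h or KO at 24 h (log2 0.26, 0.29 and 0.16, adjusted p = 0.563, 0.589 and 0.508).

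Acp5 (chromosome 9, 22126727 to 22135711, minus strand), the enzyme stained to identify osteoclasts, had 48.2 and 66.5 CPM under the WT label and 46.7 and 65.5 CPM under the KO label. The genotypes overlapped, with ratios of 0.969 at 12 h (counting interval 0.909 to 1.03) and 0.984 at 24 h (0.929 to 1.04), and no difference was called (log2 -0.03, SE 0.08, edgeR adjusted p = 0.891). An opposite-strand transcript, 6530413G14Rik, overlaps 6.75% of its exon bases and is not in the table, so its reads could be counted as Acp5 if strand was not kept. Of the 50-base stretches of Acp5 transcripts, 4.64% also occur in those of 1 other gene.

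The comparison of times asks how the genes moved between 12 h and 24 h of IL-4. Ocstamp and Acp5 were called higher at 24 h, by 1.955-fold and 1.39-fold over both genotypes, and 0 of the 8 were called lower. That is 2 of 8 called higher, where 0.955% of 10993 genes tested were called higher, 1.13% lower and 2.08% in either direction. Here too the choice of the 8 genes, made with earlier results known, means that the contrast is no test of enrichment. Ocstamp rose by log2 0.97 (SE 0.22, edgeR adjusted p = 0.0116), with ratios of 1.67 under the WT label (counting interval 1.303 to 2.15) and 2.24 under the KO label (1.86 to 2.70). Acp5 rose by 0.48 (SE 0.09, edgeR adjusted p = 0.000869), and the ratio hardly depended on genotype: 1.38 in WT (1.301 to 1.47) and 1.40 in KO (1.32 to 1.49). For 3 of the 8 genes, Ocstamp, Acp5 and Nfatc1, both 24 h libraries lay above both 12 h libraries, which was so for 15.2% of genes tested. DESeq2 called Acp5 (adjusted p = 0.00644) and gave Ocstamp no adjusted p. With genotype and a library left out the log2 fold of Ocstamp ran from 0.36 (without KO at 24 h) to 1.46 (without WT at 24 h), and that of Acp5 from 0.45 to 0.50. With genotype left out of the model, edgeR called 0 genes of all tested for time, with all 4 libraries and without each in turn, where 267 to 599 genes had an unadjusted p under 0.05, and DESeq2 with genotype in the model called 53 higher and 55 lower.

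The other 6 genes were not called for time. Dcstamp had a fold of 1.54 (log2 0.63, SE 0.18, edgeR adjusted p = 0.0576), and with no filter on low counts its adjusted p was 0.0155, against 0.103 with TMM after the filter and 0.485 by DESeq2. With genotype and a library left out its log2 fold ran from 0.14 to 1.24. Nfatc1 (log2 0.16, adjusted p = 0.45), Atp6v0d2 (0.12, 0.397), Itgb3 (0.08, 0.781) and Cdh1 (0.59, 0.669) had fitted folds above 1 that edgeR did not call. Tnfrsf11a was the 1 gene with a fold below 1 (log2 -0.19, SE 0.09, edgeR adjusted p = 0.411), at 0.870 in WT (counting interval 0.806 to 0.938) and 0.889 in KO (0.834 to 0.948).

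**Figure D3:**
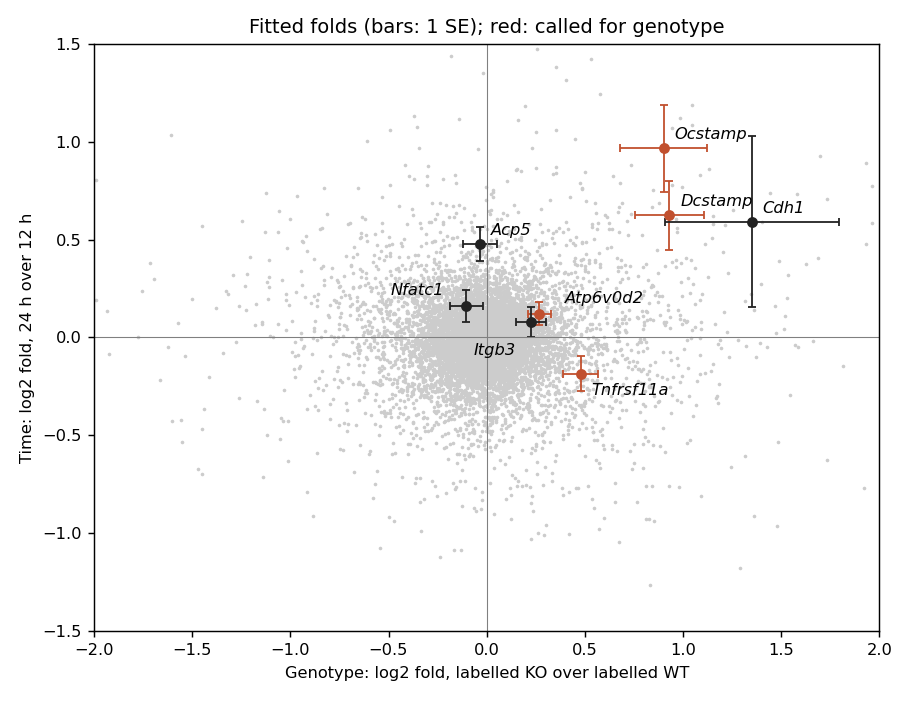
Fitted log2 folds for genotype (labelled KO over labelled WT, horizontal) and for time (24 h over 12 h, vertical); grey points are the other genes tested that fall within the axes, and bars are 1 SE. Dcstamp, Ocstamp and Cdh1 lie in the upper right, Acp5 on the time axis at 0.48, and Tnfrsf11a below 0 for time at -0.19 and at 0.48 for genotype.

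On the scale of log2(CPM + 1), 1 of the 8 genes, Ocstamp under the KO label, reached a log2 ratio of 1 from 12 h to 24 h (log2 1.004, where 0.153% of genes did). With 1 CPM added, none reached that size from 12 h to 24 h under the WT label (0.0725% of genes), or for genotype at 12 h (0.587%) or 24 h (0.568%). That count turned on the pseudocount and on the scaling. With 0.5 CPM added, Dcstamp (log2 1.016) and Cdh1 (log2 1.131) passed for genotype at 12 h and Ocstamp (log2 1.02) at 24 h. Under library totals with 1 CPM added, Ocstamp from 12 h to 24 h under the KO label fell short (log2 0.996). Under the same setting Ocstamp passed for genotype at 24 h (log2 1.004).

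Whether the genotype ratio changed with time could not be tested, since the combinations had 1 library each. Divided by the 12 h ratio, the 24 h ratio was 1.14 for Atp6v0d2 (95% counting interval 1.12 to 1.16, from a normal approximation on the log scale) and 0.928 for Itgb3 (0.873 to 0.987). For the other 6 the interval included 1, with 1.34 for Ocstamp (0.991 to 1.82), 0.801 for Dcstamp (0.636 to 1.01) and 0.504 for Cdh1 (0.251 to 1.01). These intervals cover counting error alone, which for Atp6v0d2, with 47050 to 62325 counts, is far smaller than the model's coefficient of variation of 7.76%. The model estimated that value over all genes without replicates, so it also holds genotype-by-time differences.

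Genes of the surrounding pathways were called in both directions. For the counts below, 4.18% of all 10993 genes tested were called higher under the KO label and 5.34% lower. For time, 0.955% were called higher at 24 h and 1.13% lower. The lists were chosen with earlier results of these data known. Over 9 lists, 140 other genes were tested. Of these, 12 were called higher and 17 lower under the KO label (8.57% and 12.1%), with a median log2 fold of -0.02. Without WT at 12 h, WT at 24 h, KO at 12 h and KO at 24 h in turn, with time left out of the model, 3, 3, 9 and 9 were called higher and 5, 3, 11 and 11 lower. With time left out and all 4 libraries kept, the numbers were 6 and 7.

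Among 20 RANK signalling genes, Tnfrsf11a was called higher and Map3k14, the kinase of the alternative NF-kB pathway, lower (log2 -0.73), with a list median of 0.00. Of 16 genes of ITAM co-stimulation and calcium signalling, 0 were higher and 4 lower, with a median of -0.08. Tyrobp, the adaptor DAP12, had 947 and 936 CPM under the WT label and 779 and 734 CPM under the KO label (log2 -0.32, SE 0.06, edgeR adjusted p = 0.000321). Its receptor gene Trem2 (log2 -0.28), the calcineurin regulator Rcan1 (log2 -0.38) and Sirpb1a (log2 -1.78), whose family members share sequence so that its value is uncertain, were lower too. With a library and time left out, Sirpb1a was called in all 4 fits, Tyrobp and Trem2 only without KO at 12 h, Map3k14 not without WT at 12 h or WT at 24 h, and Rcan1 in 0 fits (DESeq2 adjusted p = 0.155).

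Of 16 transcription factor genes of osteoclasts, 4 were higher and 1 lower, with a median of 0.02. Myc (0.72), Ppargc1b, a coactivator of mitochondrial biogenesis (0.56), the AP-1 gene Fosl2 (0.49) and, chosen after its values were seen, Pparg (0.29) were higher. Fos, the AP-1 subunit upstream of NFATc1, was lower, from 54.3 and 59.5 CPM to 30.8 and 37.5 CPM (log2 -0.74, SE 0.09, edgeR adjusted p = 6.90e-07). Among 16 inhibitors of osteoclast differentiation, 4 were lower and 1 higher, with a median of -0.13. Id3 (log2 -1.45), Id1 (log2 -0.81) and the phosphatase gene Dusp1 (log2 -0.66) were lower, and Socs1, a feedback inhibitor of cytokine signalling, was higher (0.50). Socs1 was high in 1 library, with 11.7 and 11.2 CPM under the WT label and 21.5 and 12.0 CPM under the KO label, and without KO at 12 h its log2 fold was 0.07. Id1 likewise was lowest in KO at 12 h (2.67 CPM, against 5.98 to 7.58 CPM in the others), and without that library its log2 fold was -0.26. Id3 was the list's 1 gene called for time, higher at 24 h (log2 0.57, edgeR adjusted p = 0.00103), and with genotype and a library left out its log2 fold ran from -0.32 to 1.48 with no call. The repressor gene Irf8, named after its values were seen, was not called (log2 -0.13, edgeR adjusted p = 0.267). With a library and time left out, Myc, Fos and Id3 were called in all 4 fits, Fosl2 and Dusp1 not without WT at 12 h or WT at 24 h, Socs1 and Id1 only without KO at 24 h, and Ppargc1b in 0. DESeq2 did not call Socs1, Id1 or Ppargc1b (adjusted p = 0.349, 0.221 and 0.139).

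Of 24 macrophage fusion genes, 6 were called higher and 2 lower, with a median of 0.05. Beside Dcstamp and Ocstamp, the chemokine gene Ccl2 was higher, at 19.4 and 15.8 CPM under the WT label and 37.3 and 30.4 CPM under the KO label (log2 0.94, SE 0.11, edgeR adjusted p = 3.00e-07). S100a4 (0.70), the tetraspanin gene Cd81 (0.58) and the metalloprotease gene Adam9 (0.42), named after their values were seen, were the other 3, and Tyrobp and Trem2 were the 2 lower. For this list the fits that left out a library, in the same order as above, called 2, 2, 4 and 4 higher, Ccl2 among them each time. For time edgeR called Ocstamp higher and Cd81 (log2 -0.48), Adam9 (log2 -0.28) and, listed to complete the count, Adam8 (log2 -0.25) lower. DESeq2 called 0 genes of this list for time in either direction (adjusted p = 0.213 for Cd81 and 0.0957 for Adam9).

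Of 19 vacuolar ATPase subunit genes, Atp6v0d2 and Atp6v0a1, a membrane a subunit, were called higher and 0 lower, with a median of -0.05. Atp6v0a1 had 1179 and 1235 CPM under the WT label and 1581 and 1541 CPM under the KO label (log2 0.37, SE 0.06, edgeR adjusted p = 2.38e-05). Tcirg1, the a3 subunit gene that osteoclasts need, was not called (log2 -0.01, adjusted p = 0.974). Of 13 bone resorption genes, 0 were higher and 2 lower, Mmp14 (log2 -0.57) and Itgav. For time edgeR called Acp5 and Ctsk (0.38, edgeR adjusted p = 0.0404) higher, and DESeq2 did not call Ctsk (adjusted p = 0.337). In fits without time and a library, Atp6v0a1 was not called without WT at 12 h or WT at 24 h (log2 0.34 to 0.41 over the 4 fits), nor Mmp14 without WT at 24 h (-0.70 to -0.44).

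**Figure D4:**
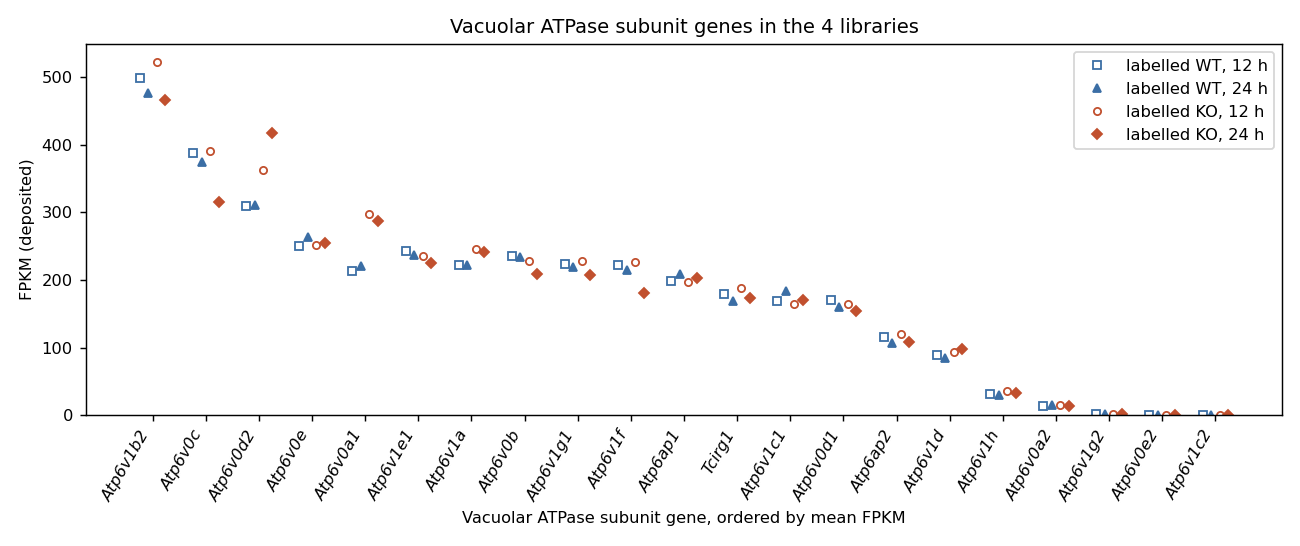
Deposited FPKM (vertical axis from 0) of 21 vacuolar ATPase subunit genes in the table, ordered by mean; squares and triangles are the libraries labelled WT and circles and diamonds those labelled KO. Atp6v0d2, from 309.9 to 417 FPKM, and Atp6v0a1, from 214 to 297 FPKM, are the subunits called higher under the KO label.

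Of 23 integrin and podosome genes, 2 were higher and 5 lower, with a median of 0.00. The ubiquitin ligase gene Cblb (0.53) and the integrin gene Itgax (0.41) were higher, and Itgav, Itgb5 and the kinase gene Ptk2b (log2 -0.34) were among the lower. For time edgeR called Itgax (0.47) and Itgb2 (0.25) higher and Gsn, which severs actin filaments, lower (log2 -0.29). DESeq2 called Itgax and Itgb2 (adjusted p = 1.23e-06 and 0.0225) and not Gsn (adjusted p = 0.0786). In fits without time and a library, Cblb was not called without WT at 12 h, Ptk2b not without WT at 12 h or WT at 24 h, and Itgax was called only without KO at 12 h.

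Of 9 cadherin and catenin genes, Ctnnb1, the beta-catenin that binds E-cadherin, was the only called gene, with 793 and 927 CPM under the WT label and 669 and 742 CPM under the KO label (log2 -0.28, SE 0.06, edgeR adjusted p = 0.00128). It was not called in any fit that left out a library and time (log2 -0.39 to -0.17).

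**Figure D5:**
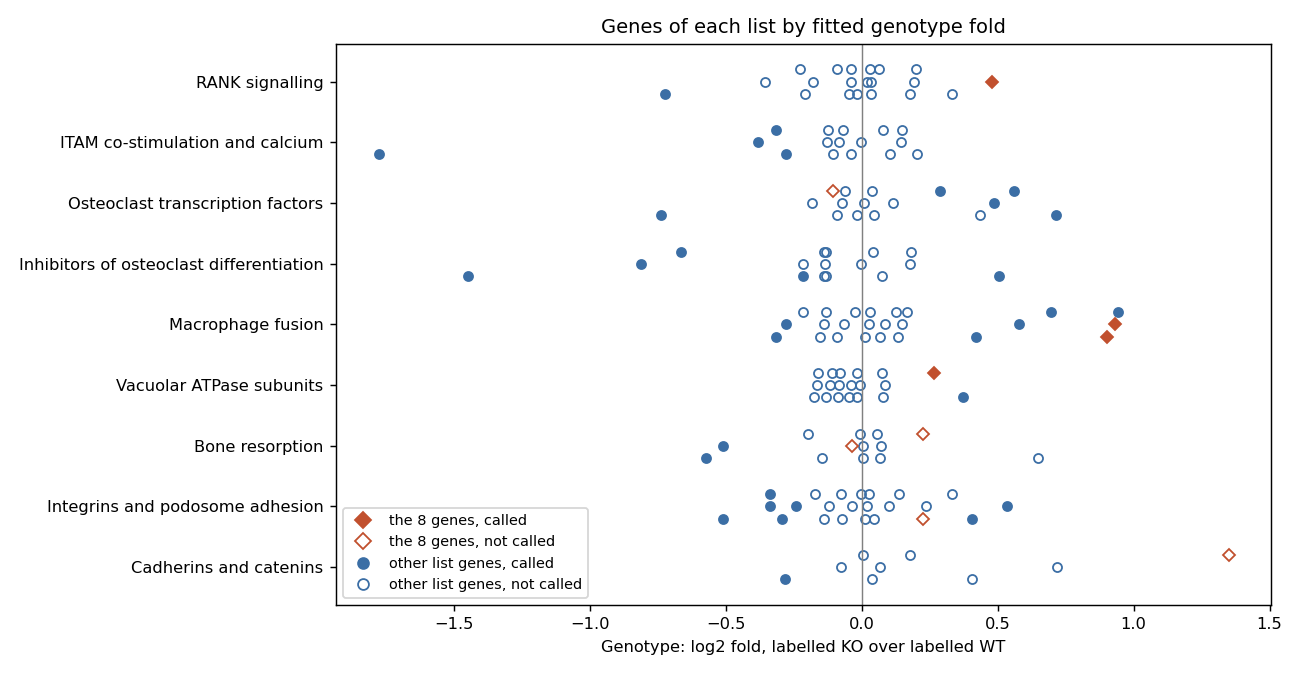
Fitted genotype log2 fold (horizontal axis) of the tested genes in each of 9 lists; diamonds are the 8 genes described, circles the others, filled where edgeR called the gene, and vertical offsets only separate points. The fusion list reaches 0.94 on the right, and the ITAM list reaches -1.78 on the left with no called gene above 0.

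The genes whose course over the 4 libraries was closest to that of Dcstamp were sought among 9235 genes with a mean of at least 5 CPM. The measure was the root mean square difference of centred log2(CPM + 1) values, which ranks and does not test. The nearest were Serpinb2, a serine protease inhibitor (0.09), Pdpn, a mucin-like membrane protein (0.11), Cdh11, a cadherin (0.15), Plekhf1 (0.16) and Cald1, an actin-binding protein (0.16). Pdpn, for example, had 5.09 and 9.74 CPM under the WT label and 9.72 and 13.4 CPM under the KO label. Pdpn, Cdh11 and Cald1 are also made by fibroblasts, whose markers were higher under the KO label as given above, and the part of such cells in the Dcstamp difference was not tested. Ocstamp ranked 24th by this measure (0.21), Atp6v0d2 at 299 and Nfatc1 at 4502.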

How the data were processed

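RNA-seq was made from 4 libraries of mouse macrophages. The authors deposited whole-number gene counts with FPKM in a single table keyed by symbol. HISAT2, edgeR, StringTie 1.3.0 and the mm10 build are named, per the submitters' processing notes, without their roles; the sources used here do not give the counting tool, annotation or strand setting. The deposited FPKM values are the counts divided by gene length and library total (largest relative deviation 1.13e-13).

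Counts were scaled by the trimmed mean of M values (TMM) over all genes in edgeR 4.0.16 under R 4.3.3, and 10993 genes that reached 1 CPM in 2 or more libraries were tested with edgeR's quasi-likelihood test in an additive model of genotype and time (two-sided, Benjamini-Hochberg adjusted, 1 residual degree of freedom). The step was tested on simulated data. SE is the log2 fold divided by the square root of F. Ratios of 2 libraries carry exact 95% binomial intervals of their counts (SciPy 1.17.1), which cover counting error only, since each combination has 1 library. Reads carried no molecular identifiers. Depth was 36707999 to 41770309 counts. Positions come from GENCODE M21, which named 14492 of the symbols, and shared stretches of 50 bases from its transcripts. Alternatives were median-of-ratios scaling, library totals, no filter, DESeq2 1.42.0, a factor left out, each library left out, a pseudocount of 0.5 CPM and, chosen after seeing the data, TMM after the filter.

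The 8 genes and the lists were chosen with earlier results of these data known. All 8 genes and Phlpp1 are named. From each pathway list up to 3 called genes per direction for genotype and 2 for time, by size of fold, are named, as are the 5 genes nearest to Dcstamp and the paralog Atp6v0d1.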

Additional observations from a re-analysis of the deposited data

How the results depend on the processing

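The calls of the 8 genes rest on a model with 1 residual degree of freedom, and each combination has 1 library. Depth limits Cdh1, with 16 to 62 counts in a library. For genotype, 4 of the 8 genes were called with TMM, with no filter and with TMM after the filter, 5 with median-of-ratios scaling (Cdh1 added) and 3 with DESeq2 (Ocstamp not called). With time left out, 0 were called, and with a library left out as well 0 to 3. Of all genes tested, 459 passed as higher and 587 as lower, against 219 and 298 by DESeq2, 112 and 147 with time left out, and, with a library left out as well, 71, 81, 244 or 245 higher and 75, 98, 319 or 332 lower. For time, 105 genes were called higher and 124 lower, against 53 and 55 by DESeq2, and 0 and 0 with genotype left out, with or without each library. Of the 8 genes 2 were called for time, 1 by DESeq2 and 0 with genotype left out, with or without each library. Those fits put the effect of the factor left out into the residual and the fold.

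With a library and the other factor left out together, some folds changed sign, none of them called: Acp5 for genotype ranged from log2 -0.30 to 0.22 (above 0 at 0.192 and 0.218), and for time Atp6v0d2 from -0.061 to 0.30, Tnfrsf11a from -0.45 to 0.067 (also 0.044), Cdh1 from -0.18 to 0.86 and Itgb3 from -0.06 to 0.22 (also -0.016). Such a fit leaves 1 library in a group, so its fold also holds a difference between times or between genotypes. It cannot show the part of the missing library alone. Under library totals the Atp6v0d2 ratios moved beyond their counting interval, to log2 0.23 and 0.42 for KO over WT at 12 h and 24 h and 0.01 for 24 h over 12 h in WT. No paired analysis was possible because the labels give no replicate numbers to block on; the model itself compares genotypes within each time.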
